A study of Homo sapiens with 7 samples.

Results

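The nucleosome remodelling and deacetylase complex, NuRD, joins 2 enzymes in one assembly: an ATPase that moves nucleosomes and a histone deacetylase. The genes described here are the 8 that code for its remodelling arm, taken by name from an expression table of 23710 genes: CHD3, CHD4, CHD5, MBD2, MBD3, GATAD2A, GATAD2B and CDK2AP1. All 8 were in the table, and all 8 had a mean normalized count of at least 50, the minimum for a tested gene, which 12578 genes (53.0%) reached. The choice follows the make-up of the complex and uses no measured value.

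The cells were SNU398, an established human hepatocellular carcinoma line that makes the zinc finger transcription factor SALL4. Cultures were given a peptide at 30 µM for 8 hours, with a single sequenced RNA library (n = 1) for each of PEN-FFW, PEN-WT, PEN-MUT and PEN. All 4 groups therefore carry the cell-penetrating carrier penetratin, which is what PEN stands for on its own, and cells without peptide are not part of the comparison. As the study is known, PEN-WT adds the stretch of SALL4 that binds RBBP4, a histone-binding subunit of NuRD, PEN-MUT adds a mutated form of it as a control, and PEN-FFW adds an engineered variant.

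With 1 library per peptide there is no replicate and no test between peptides, so no p-value is given anywhere. Each ± is a standard error, and each interval a 95% interval, of the counting of reads only, and the spread between cultures adds to it by an unknown amount. The library totals in genes above the lowest listed value were 27347377 reads for PEN-FFW, 40717633 for PEN-WT, 32043544 for PEN-MUT and 37784093 for PEN, of which the 8 genes held 41673, 60344, 45905 and 54525. Differences below are on the scale of log2(normalized count + 10). On the authors' scaling, without centring, the median tested gene stood at -0.27 for PEN-FFW against PEN, so differences are centred, that is, taken less the median tested gene of the same 2 libraries. A gene is counted as apart at 1.2-fold, 0.26 on that scale. Of 13 markers of hepatocytes and liver tumours, 4 passed the minimum and 7 were at the lowest listed value in all 4 libraries (APOB, TTR, SERPINA1, FGB, HNF4A, KRT8 and KRT18). GPC3, a liver tumour marker, had 998, 1253, 1281 and 1249.5 normalized counts under PEN-FFW, PEN-WT, PEN-MUT and PEN. The collagen gene COL3A1, a fibroblast marker, had 72895, 76726, 79779 and 76546, 5 of 8 markers of other cell types passed the minimum, and CD3E, PECAM1 and CDH5 were at the lowest listed value. In bulk RNA fewer cells of a type and less RNA per cell cannot be told apart.

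In NuRD the ATPase is CHD3, CHD4 or CHD5, large paralogues that slide nucleosomes along DNA. MBD2 or MBD3 sits at the centre: MBD2 binds methylated CpG sites, whereas mammalian MBD3 does so poorly, and a given complex holds one or the other. The zinc finger proteins GATAD2A and GATAD2B link the MBD subunit to the CHD subunit, and CDK2AP1 is a small additional subunit. The deacetylases HDAC1 and HDAC2, the MTA proteins and the histone-binding RBBP4 and RBBP7 form the other arm, which SALL4 contacts.

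Relative to PEN, the less abundant CHD and GATAD2 paralogues stood above the abundant ones under PEN-FFW and, by less, under PEN-WT. MBD2, the less abundant of its pair, did not, at -0.05 under PEN-FFW beside 0.10 for MBD3. GATAD2B, CHD5 and CHD3 were past 1.2-fold higher than PEN under PEN-FFW, by 0.76, 0.48 and 0.30, and GATAD2B alone reached that size under PEN-WT, by 0.44. CHD4, GATAD2A, MBD2, MBD3 and CDK2AP1 lay between -0.15 and 0.10 from PEN under PEN-FFW. PEN-MUT differed from PEN by at most 0.14 in any of the 8 genes. The 3 of 8 genes higher under PEN-FFW compare with 20.8% of all tested genes past that fold there, and the 0 of 8 lower with 9.87%. That count rests on the centring: without centring 1 member was higher (GATAD2B) and 4 were lower (CHD4, MBD2, GATAD2A and CDK2AP1) by at least 1.2-fold. For PEN-WT against PEN 1 of 8 was higher and 0 lower, where 9.29% of tested genes were higher and 5.92% lower. For PEN-MUT against PEN 0 of 8 lay past 1.2-fold either way, against 4.06% of tested genes higher and 5.36% lower. At 2-fold, 0 of 8 members were apart in any of the 6 pairs of libraries. Of all tested genes 2.08% were 2-fold higher and 0.0398% lower for PEN-FFW against PEN, 0.0477% and 0.0159% for PEN-WT against PEN, and 0% and 0.0159% for PEN-MUT against PEN. The shares were 2.49% and 0.00795% for PEN-FFW against PEN-MUT, 0.0398% and 0% for PEN-WT against PEN-MUT, and 0.843% and 0% for PEN-FFW against PEN-WT. With so few members these counts are a description, and nothing particular to the arm is drawn from them.

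**Figure D1:**
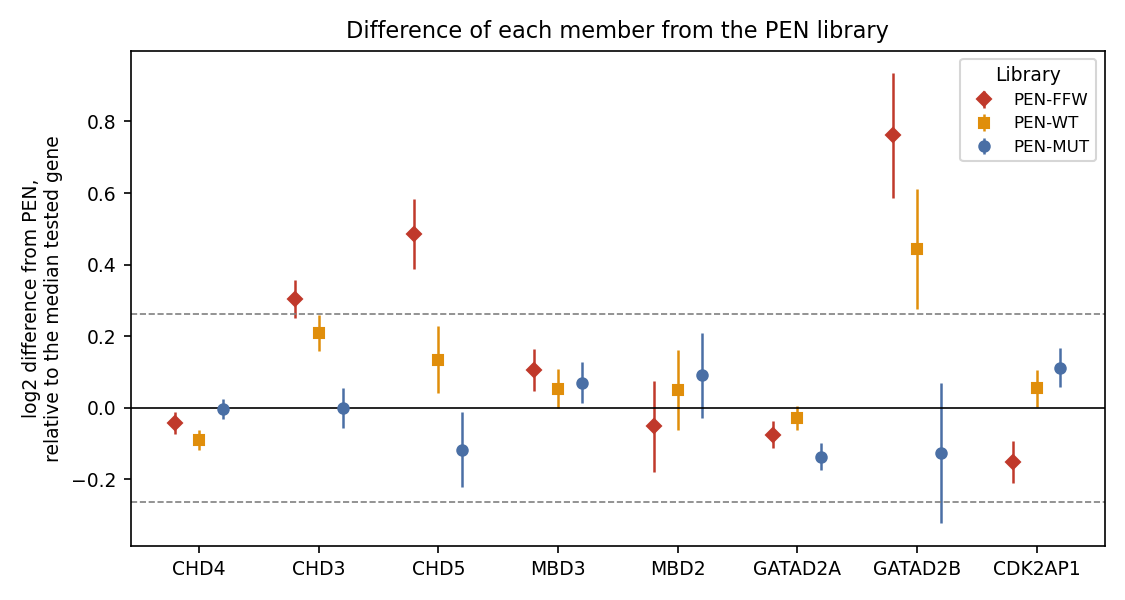
Centred log2 difference between each member's level and its level under PEN, for PEN-FFW (diamonds), PEN-WT (squares) and PEN-MUT (circles), with 95% counting intervals from 1 library per peptide and dashed lines at 1.2-fold. GATAD2B, CHD5 and CHD3 under PEN-FFW and GATAD2B under PEN-WT lie above the upper dashed line.

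Levels of different genes were compared as reads per kilobase of the canonical transcript in a library of 1000000 reads. CDK2AP1, a short transcript of 1346 bases, was highest with 105, 119, 122 and 112 under PEN-FFW, PEN-WT, PEN-MUT and PEN. CHD4 followed with 88.1, 83.9, 87.3 and 87.2, and GATAD2A with 61.7, 62.7, 57.1 and 62.5. MBD3 lay between 23.7 and 26.5 and CHD3 between 20.3 and 26.1. The counting intervals of MBD3 and CHD3 overlapped under PEN-FFW and PEN-WT but not under PEN-MUT or PEN, where MBD3 was higher. MBD2, between 6.09 and 6.52, stood above CHD5 under PEN-WT, PEN-MUT and PEN. In PEN-FFW the intervals of CHD5 (6.37) and MBD2 (6.10) overlapped. GATAD2B was lowest in every library, with 2.82, 2.23, 1.46 and 1.59. With all annotated exons merged in place of the canonical transcript, CDK2AP1 took place 3 in every library, so its place at the top depends on the transcript model.

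**Figure D2:**
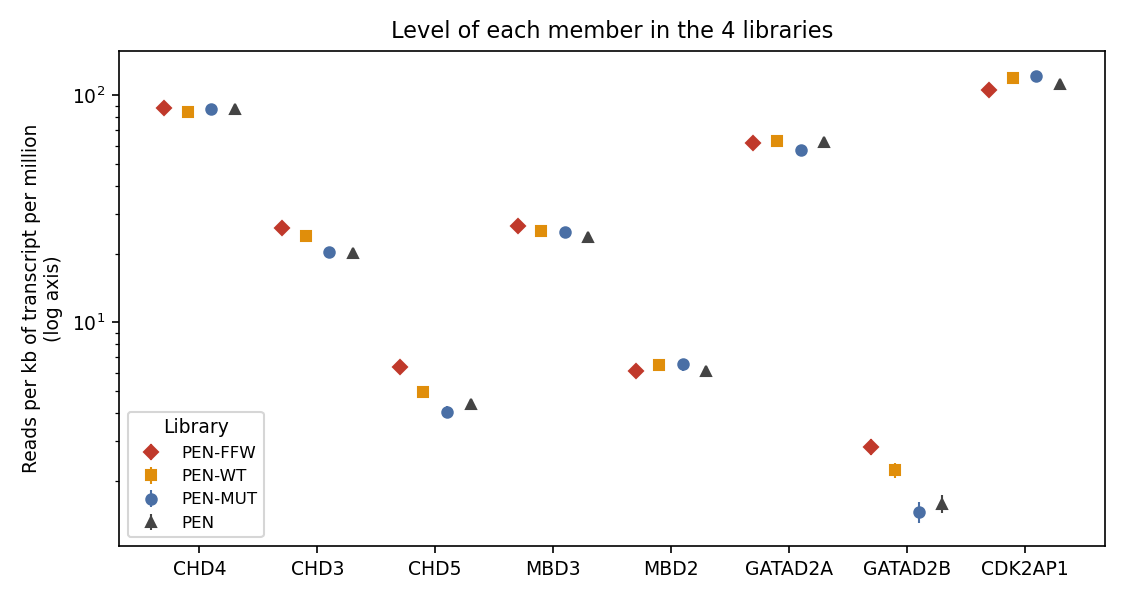
Reads per kilobase of canonical transcript in 1000000 reads (log axis) for the 8 members under PEN-FFW, PEN-WT, PEN-MUT and PEN, with 95% counting intervals that are mostly smaller than the symbols. Levels span from 1.46 for GATAD2B under PEN-MUT to 122 for CDK2AP1 under PEN-MUT, and CHD5 and GATAD2B vary most between libraries.

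GATAD2B, on chromosome 1 (153761506 to 153895836, minus strand, GRCh37), gave the largest difference of the arm. It had 533 normalized counts under PEN-FFW and 526 under PEN-WT, against 349 under PEN-MUT and 376 under PEN. The libraries fell into 2 pairs, PEN-FFW with PEN-WT above PEN-MUT with PEN, and the reads behind them were 577, 678, 349 and 448. Relative to the median tested gene the difference from PEN was 0.76 ± 0.09 under PEN-FFW and 0.44 ± 0.09 under PEN-WT, and -0.13 ± 0.10 under PEN-MUT, where the interval held 0. Of all tested genes, 95.9% had a lower difference from PEN under PEN-FFW and 97.6% under PEN-WT. Against PEN-MUT, PEN-FFW was higher by 0.89 ± 0.10 and PEN-WT by 0.58 ± 0.09, and 99.1% of tested genes lay lower in the PEN-WT comparison. Without centring, PEN-FFW and PEN-WT were also past 1.2-fold higher than PEN, at 0.49 and 0.47.

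GATAD2A, the other linker gene, on chromosome 19 (19496635 to 19619741, plus strand, GRCh37), did not share that pattern. It had 8908 normalized counts under PEN-FFW, 11330.2 under PEN-WT, 10452 under PEN-MUT and 11324 under PEN. Its differences from PEN were -0.08 ± 0.02 under PEN-FFW, -0.03 ± 0.02 under PEN-WT and -0.14 ± 0.02 under PEN-MUT, so that PEN-MUT was the lowest after centring and PEN-FFW without centring. A ratio of 2 genes within a library does not depend on the scaling between libraries. GATAD2B made up 5.64% of the reads of the pair under PEN-FFW (exact Clopper-Pearson interval 5.20% to 6.11%) and 4.44% under PEN-WT (4.12% to 4.78%). In PEN-MUT it was 3.23% (2.91% to 3.58%), and under PEN 3.22% (2.93% to 3.52%). The share was thus higher under PEN-FFW than under PEN-WT and higher in both than under PEN-MUT or PEN, with no overlap of the counting intervals between these steps, and PEN-MUT and PEN did not differ beyond counting error. On the log2 scale the ratio of GATAD2A to GATAD2B was lower than under PEN by 0.85 ± 0.09 under PEN-FFW (difference -0.85) and by 0.48 ± 0.09 under PEN-WT (difference -0.48).

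The starts of both genes are shown because the pair diverged: 300 bases each, 250 before and 50 after the start, from RefSeq on GRCh38.p14, where 7 of the 8 members had an entry. The GATAD2B window lies at chr1:153922923-153923222 on the minus strand and that of GATAD2A at chr19:19385593-19385892 on the plus strand. With 1 window kept per gene, other starts were not examined. Capitals mark CCAAT, or ATTGG on the other strand.
GATAD2B: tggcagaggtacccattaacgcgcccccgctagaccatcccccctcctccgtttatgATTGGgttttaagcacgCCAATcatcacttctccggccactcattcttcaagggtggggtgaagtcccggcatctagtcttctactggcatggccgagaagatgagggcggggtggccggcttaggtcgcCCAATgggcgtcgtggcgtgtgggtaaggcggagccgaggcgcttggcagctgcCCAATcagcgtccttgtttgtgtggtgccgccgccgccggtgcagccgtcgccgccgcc
GATAD2A: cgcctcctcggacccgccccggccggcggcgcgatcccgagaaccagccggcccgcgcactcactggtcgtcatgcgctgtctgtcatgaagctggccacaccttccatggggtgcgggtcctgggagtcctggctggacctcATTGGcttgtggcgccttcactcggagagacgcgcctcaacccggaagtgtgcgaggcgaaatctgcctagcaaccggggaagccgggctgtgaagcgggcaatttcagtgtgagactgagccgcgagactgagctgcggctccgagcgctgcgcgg
The GATAD2B window holds 4 CCAAT boxes and the GATAD2A window 1, and 35.7% of all 27305 promoters in that table hold at least 1. CpG sites numbered 26 for GATAD2B and 32 for GATAD2A, against a median of 14 over all promoters. The other motifs searched on both strands were the GC box GGGCGG (1 in each, 44.6% of promoters), the ETS motif CCGGAAG (0 in GATAD2B and 1 in GATAD2A, 10.7%), the E-box CACGTG (0 in each, 7.43%) and TATAAA (0 in each, 12.0%). These are matches of letters and no measure of binding.

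CHD4, the CHD member with the highest transcript level, hardly differed between libraries after centring. It lies on chromosome 12 (6679248 to 6723690, minus strand, GRCh37) and had 14442 normalized counts under PEN-FFW, 17221 under PEN-WT, 18164 under PEN-MUT and 17949 under PEN. Only PEN-FFW was clearly lower in normalized counts, by about as much as the median tested gene. Relative to that gene it stood at -0.04 ± 0.02 from PEN under PEN-FFW, -0.09 ± 0.01 under PEN-WT and -0.0041 ± 0.01 under PEN-MUT.

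CHD3, on chromosome 17 (7788114 to 7816078, plus strand, GRCh37), had 4857 normalized counts under PEN-FFW, 5605 under PEN-WT, 4815 under PEN-MUT and 4745 under PEN. PEN-WT was the highest in normalized counts, and the other three lay close together. Relative to the median tested gene CHD3 was higher than under PEN by 0.30 ± 0.03 under PEN-FFW and by 0.21 ± 0.03 under PEN-WT, and PEN-MUT was within 0.06 of PEN by its interval (-0.06 to 0.06). Without centring the PEN-FFW value was only 0.03 above PEN, so its size rests on the centring, while that of PEN-WT was 0.24. The share of CHD3 in the reads of CHD3 and CHD4, which needs no centring, was 25.2% under PEN-FFW (24.6% to 25.8%) and 24.6% under PEN-WT (24.1% to 25.1%), against 21.0% under PEN-MUT (20.4% to 21.5%) and 20.9% under PEN (20.4% to 21.4%). PEN-FFW and PEN-WT overlapped in this share, as did PEN-MUT and PEN, and the 2 sets of libraries did not overlap. The log2 ratio of CHD3 to CHD4 differed from PEN by 0.35 ± 0.03 under PEN-FFW and by 0.30 ± 0.03 under PEN-WT.

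CHD5, a paralogue best known from brain and testis and studied as a tumour suppressor, lies on chromosome 1 (6161847 to 6240381, minus strand, GRCh37). It had 1585 normalized counts under PEN-FFW, 1531 under PEN-WT, 1276 under PEN-MUT and 1365 under PEN. PEN-FFW and PEN-WT were again above PEN-MUT and PEN. Its difference from PEN was 0.48 ± 0.05 under PEN-FFW (0.21 without centring), 0.13 ± 0.05 under PEN-WT and -0.12 ± 0.05 under PEN-MUT. Against PEN-MUT it was 0.61 ± 0.05 under PEN-FFW and 0.26 ± 0.05 under PEN-WT, and the PEN-WT value was just under 1.2-fold. Set against CHD4, a pair chosen after its values were seen, CHD5 held 9.89% of reads under PEN-FFW (9.45% to 10.3%), 8.16% under PEN-WT (7.82% to 8.52%), 6.56% under PEN-MUT (6.22% to 6.92%) and 7.07% under PEN (6.74% to 7.40%).

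**Figure D3:**
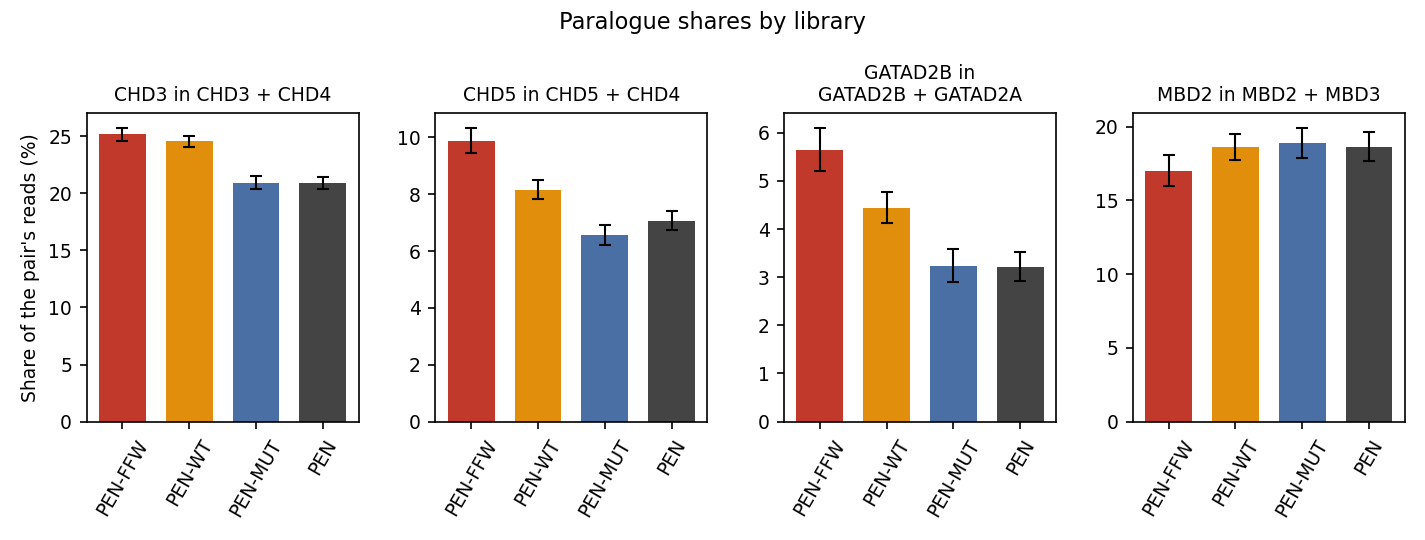
Share (%) of the reads of 2 paralogues that fell on the less abundant one, under PEN-FFW, PEN-WT, PEN-MUT and PEN, with exact 95% counting intervals. The shares of CHD3, CHD5 and GATAD2B are higher under PEN-FFW and PEN-WT than under PEN-MUT and PEN, and the MBD2 share lies between 17.0% and 18.9%.

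A start window of CHD3 (chr17:7888539-7888838, plus strand) and of CHD4 (chr12:6606402-6606701, minus strand), from the same RefSeq table on GRCh38.p14, is shown because these windows differ in base composition. Other starts of either gene were not examined, so the contrast holds for these windows only. With the same marking neither window holds a CCAAT box. Over the canonical transcripts the order was the other way, with a GC content of 55.0% for CHD3 and 51.3% for CHD4.
CHD3: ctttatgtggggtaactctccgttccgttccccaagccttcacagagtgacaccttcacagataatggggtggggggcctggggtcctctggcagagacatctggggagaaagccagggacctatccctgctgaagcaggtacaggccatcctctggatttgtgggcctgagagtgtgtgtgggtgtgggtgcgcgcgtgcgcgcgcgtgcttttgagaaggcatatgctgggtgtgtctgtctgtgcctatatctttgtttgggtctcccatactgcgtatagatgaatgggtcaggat
CHD4: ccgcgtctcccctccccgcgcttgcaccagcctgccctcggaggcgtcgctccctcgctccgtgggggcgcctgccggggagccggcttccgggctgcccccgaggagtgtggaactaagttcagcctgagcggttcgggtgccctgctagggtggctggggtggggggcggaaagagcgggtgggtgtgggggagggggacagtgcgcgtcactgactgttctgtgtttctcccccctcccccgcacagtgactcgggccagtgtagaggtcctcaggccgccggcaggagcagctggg
The CHD3 window has 10 CpG sites and a GC content of 56.0%, and the CHD4 window 24 CpG sites and 71.7%. CHD4 has 1 GC box and 1 ETS motif, and CHD3 has none of the 5 motifs searched.

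The MBD subunits differed little. MBD3, on chromosome 19 (1573595 to 1592864, GRCh37, minus strand), stood at 3802 normalized counts under PEN-FFW, 4522 under PEN-WT, 4544 under PEN-MUT and 4266 under PEN, and its differences from PEN were 0.10 ± 0.03, 0.05 ± 0.03 and 0.07 ± 0.03 under PEN-FFW, PEN-WT and PEN-MUT. Without centring the PEN-FFW value turned to -0.17, so no direction is given for it. MBD2, on chromosome 18 (51677976 to 51751039, GRCh37, minus strand), gave 780.1, 1034, 1058 and 978 normalized counts under PEN-FFW, PEN-WT, PEN-MUT and PEN. Its counting intervals of the difference from PEN held 0 under PEN-FFW (-0.18 to 0.07), PEN-WT (-0.06 to 0.16) and PEN-MUT (-0.03 to 0.21). MBD2 made up 17.0% of the reads of the pair under PEN-FFW (16.0% to 18.1%), 18.6% under PEN-WT (17.7% to 19.5%), 18.9% under PEN-MUT (17.9% to 19.9%) and 18.7% under PEN (17.7% to 19.6%). The log2 ratio of MBD3 to MBD2 was 0.16 ± 0.07 higher under PEN-FFW than under PEN, and its interval (0.02 to 0.30) only just left 0 out. It was 0.0044 ± 0.06 under PEN-WT. The intervals hold changes of up to 0.13 in that ratio for PEN-WT, so a small shift was not detectable at this depth.

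CDK2AP1, a small protein first described as a partner of the kinase CDK2, lies on chromosome 12 (123734659 to 123756881, minus strand, GRCh37). It had 3565 normalized counts under PEN-FFW, 5072 under PEN-WT, 5247 under PEN-MUT and 4784 under PEN. PEN-FFW was the lowest and PEN-MUT the highest. The differences from PEN were -0.15 ± 0.03 under PEN-FFW, 0.05 ± 0.03 under PEN-WT and 0.11 ± 0.03 under PEN-MUT. Against PEN-MUT, PEN-FFW stood at -0.26 ± 0.03, just inside 1.2-fold, and 6.77% of tested genes lay lower. The size of the PEN-FFW value depends on the centring. Without centring it was -0.42 against PEN and -0.56 against PEN-MUT, both past 1.2-fold. Relative to genes of like GC content and expression it was -0.05 and -0.17. CDK2AP1 was the member with the lowest PEN-FFW value against each of PEN-WT, PEN-MUT and PEN.

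The 4 peptides share a dose and a time, so their readouts can be set side by side in 6 pairs. PEN-FFW and PEN-WT, which differ in the SALL4-derived stretch, differed for CHD5 by 0.35 (0.26 to 0.44), for GATAD2B by 0.32 (0.16 to 0.48) and for CDK2AP1 by -0.21 (-0.26 to -0.15). For the first 2 genes the difference was 0.05 and 0.02 without centring, so it rests on the centring. The intervals held 0 for MBD2 (-0.22 to 0.02) and MBD3 (-0.01 to 0.11), which leaves room for differences of that size. CHD3 (0.09), CHD4 (0.05) and GATAD2A (-0.05) were apart by less than 0.15 at either end of their intervals, but without centring they came to -0.21, -0.25 and -0.35. Without centring MBD3 stood at -0.25, MBD2 at -0.40 and CDK2AP1 at -0.51. In this pair 2 of 8 members were at least 1.2-fold higher, against 14.2% of tested genes, and 0 lower, against 2.7%. Without centring 0 were higher and 3 lower (GATAD2A, MBD2 and CDK2AP1), so the direction of the calls in this pair rests on the centring.

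PEN-WT and PEN-MUT, which differ by the mutation in that stretch, were apart by at least 1.2-fold in GATAD2B only (0.58, interval 0.40 to 0.76). That is 1 of 8 members higher, against 8.36% of tested genes, and 0 lower, against 1.37%. CHD5 (0.16 to 0.36) and CHD3 (0.17 to 0.27) were also above 0 by their intervals, as was GATAD2A (0.08 to 0.15), and CHD4 was below (-0.11 to -0.05). By the same rule 19.7% of all tested genes lay above 0 and 19.5% below, so such an interval is common. MBD2 (-0.15 to 0.08), MBD3 (-0.06 to 0.05) and CDK2AP1 (-0.10 to 0.0031) were not distinguishable from 0. PEN-FFW against PEN-MUT had 3 of 8 members higher (GATAD2B, CHD5 and CHD3 with 0.89, 0.61 and 0.31), against 19.8% of tested genes, and 0 lower, against 6.27%. Without centring 2 were higher (GATAD2B and CHD5) and 3 lower (CHD4, MBD2 and CDK2AP1). These pairs share libraries with the comparisons against PEN and do not repeat them independently.

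Differences from PEN moved with abundance and base composition across all tested genes, and both vary within the arm. Over 12103 genes, none of them an independent replicate, the Spearman correlation of the PEN-FFW difference was -0.37 with mean normalized count and 0.36 with GC content of the transcript. For PEN-WT the values were -0.21 and 0.36, and for PEN-MUT -0.03 and 0.09. GATAD2B is the least abundant member and has 48.0% GC, close to the middle of the tested genes, whereas CHD5 has 60.5% and MBD3 62.8%. Relative to the 500 tested genes nearest in both GC content and mean expression, a comparison chosen once values were known, GATAD2B stood at 0.73 under PEN-FFW and 0.44 under PEN-WT, CHD3 at 0.37 and 0.21, and CHD5 at 0.38 and 0.07. The 3 genes past 1.2-fold under PEN-FFW, and GATAD2B under PEN-WT, thus also stood past 1.2-fold from genes like themselves. CHD4 came to 0.09 under PEN-FFW and GATAD2A to -0.0055. The paralogue shares need no centring, but these trends do not cancel in them. For PEN-FFW against PEN the median of the matched genes was 0.11 for CHD5, -0.07 for CHD3 and -0.13 for CHD4. It was 0.03 for GATAD2B and -0.07 for GATAD2A. Some nuclear RNAs, named after their values were seen, were also higher under PEN-FFW. MALAT1 was at 0.61, NEAT1 at 1.08 and KCNQ1OT1 at 1.66 from PEN under PEN-FFW, against -0.01, 0.02 and 0.17 under PEN-WT. Of all tested genes 20.8% were at least 1.2-fold higher and 2.08% at least 2-fold higher under PEN-FFW. Nuclear RNAs as a class were not examined, and the part of these RNAs in the results for GATAD2B, CHD5 and CHD3 was not tested.

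**Figure D4:**
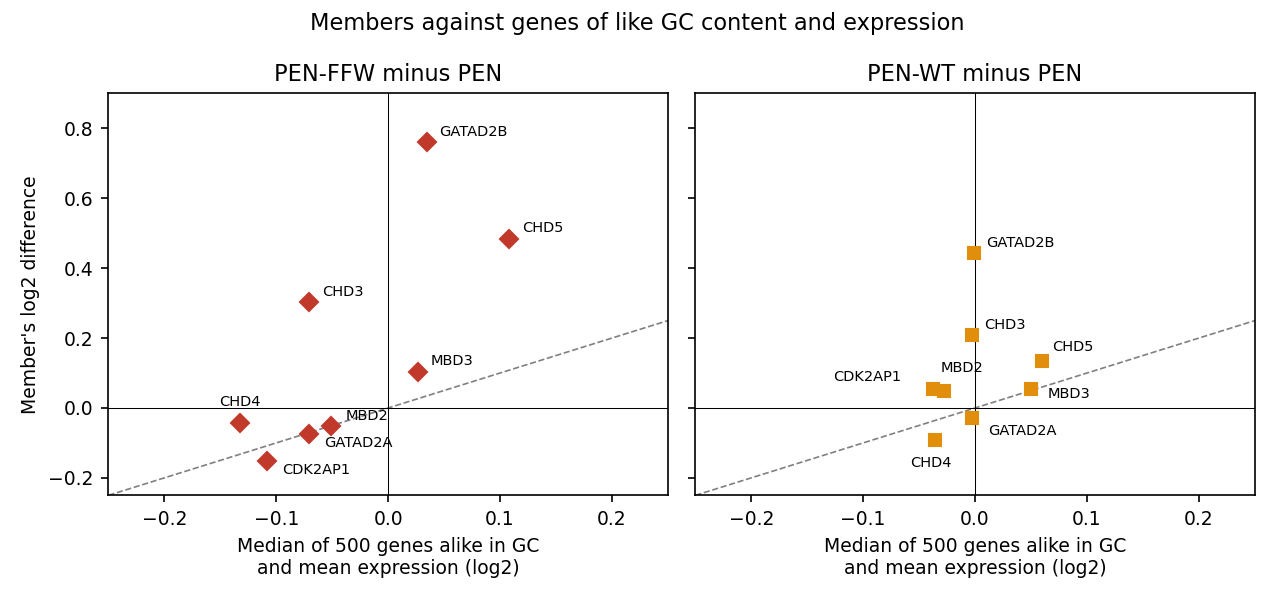
Log2 difference from PEN of each member (vertical axis) against the median difference of the 500 tested genes nearest to it in GC content and mean expression (horizontal axis), for PEN-FFW (diamonds) and PEN-WT (squares), with a dashed line where the 2 are equal. GATAD2B, CHD5 and CHD3 lie well above the line under PEN-FFW and GATAD2B and CHD3 under PEN-WT.

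The deacetylase arm of NuRD holds the RBBP4 subunit. Of its 7 genes 0 were past 1.2-fold from PEN under PEN-FFW, PEN-WT or PEN-MUT. Of all tested genes 20.8% were higher and 9.87% lower under PEN-FFW, 9.29% and 5.92% under PEN-WT, and 4.06% and 5.36% under PEN-MUT. With 7 genes this count is a description, and no contrast between the arms is drawn from it. The 0 under PEN-FFW rests on the centring. Without centring HDAC1, with 3917 normalized counts under PEN-FFW and 5598 under PEN, was past 1.2-fold lower. After centring, the median of the 7 genes was -0.16 under PEN-FFW, -0.0091 under PEN-WT and 0.04 under PEN-MUT, beside 0.03, 0.05 and -0.0022 for the remodelling arm. All tested genes have a median of 0 by construction. Under PEN-FFW 6 of the 7 were below 0, against 4 of 8 in the remodelling arm, among them HDAC1 at -0.24 ± 0.03, HDAC2 at -0.22 ± 0.03 and RBBP4 at -0.10. Relative to genes of like GC content and expression the deacetylase median under PEN-FFW was -0.05 and that of the remodelling arm 0.08.

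A relative of the MBD members outside NuRD had a larger difference than any member. Among the 6 other methyl-CpG-binding genes, MBD6, a paralogue found with a histone H2A deubiquitinase complex, had 755 normalized counts under PEN-FFW, 594 under PEN-WT, 288 under PEN-MUT and 368 under PEN. Its differences from PEN were 1.29 ± 0.08, 0.65 ± 0.08 and -0.36 ± 0.11 under PEN-FFW, PEN-WT and PEN-MUT, the same order of libraries as for GATAD2B after centring. In this list 2 of 6 were at least 1.2-fold higher under PEN-FFW and 1 lower, beside 20.8% and 9.87% of all tested genes, and relative to genes of like GC content and expression 2 were higher and 0 lower. Of the 7 other CHD genes 2 were higher and 0 lower, a count near the same shares of all tested genes, the chromatin remodellers CHD6 at 0.38 ± 0.04 and CHD2 at 0.31 ± 0.02, and the list's median was 0.12. Relative to genes of like GC content and expression 3 of these 7 were higher and 0 lower, and the median was 0.26. Without centring neither CHD6 nor CHD2 was past 1.2-fold higher under PEN-FFW, since the median tested gene then stood at -0.27.

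Another list held factors that bring NuRD to DNA or bind it. Of 14 tested genes 7 were at least 1.2-fold higher and 0 lower under PEN-FFW, with a median of 0.26, beside 20.8% and 9.87% of all tested genes. Under PEN-WT 4 were higher and 1 lower, with a median of 0.19, beside 9.29% and 5.92%. ZFPM1, a GATA factor partner that recruits NuRD, stood at 0.57 ± 0.13 under PEN-FFW and SALL3, a paralogue of SALL4, at 0.44 ± 0.09, but relative to genes of like GC content and expression these came to 0.17 and 0.18, and the count of higher genes to 4. The counts under PEN-FFW also rest on the centring, since the median tested gene stood at -0.27 without it. Without centring SALL3 fell short of 1.2-fold and SALL4 was past 1.2-fold lower under PEN-FFW. After centring, SALL4 itself was the 1 lower gene under PEN-WT, at -0.40 ± 0.05, and stood at -0.24 ± 0.05 under PEN-FFW and -0.31 ± 0.05 under PEN-MUT. IKZF1 was at the lowest listed value in all 4 libraries. Of the 4 partners of CHD4 in the ChAHP complex, which joins CHD4 to the homeodomain protein ADNP and to heterochromatin proteins, ADNP was at 0.30 ± 0.03 and CBX3 at -0.36 ± 0.03 under PEN-FFW, with CBX1 and CBX5 within 0.10 of 0.

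**Figure D5:**
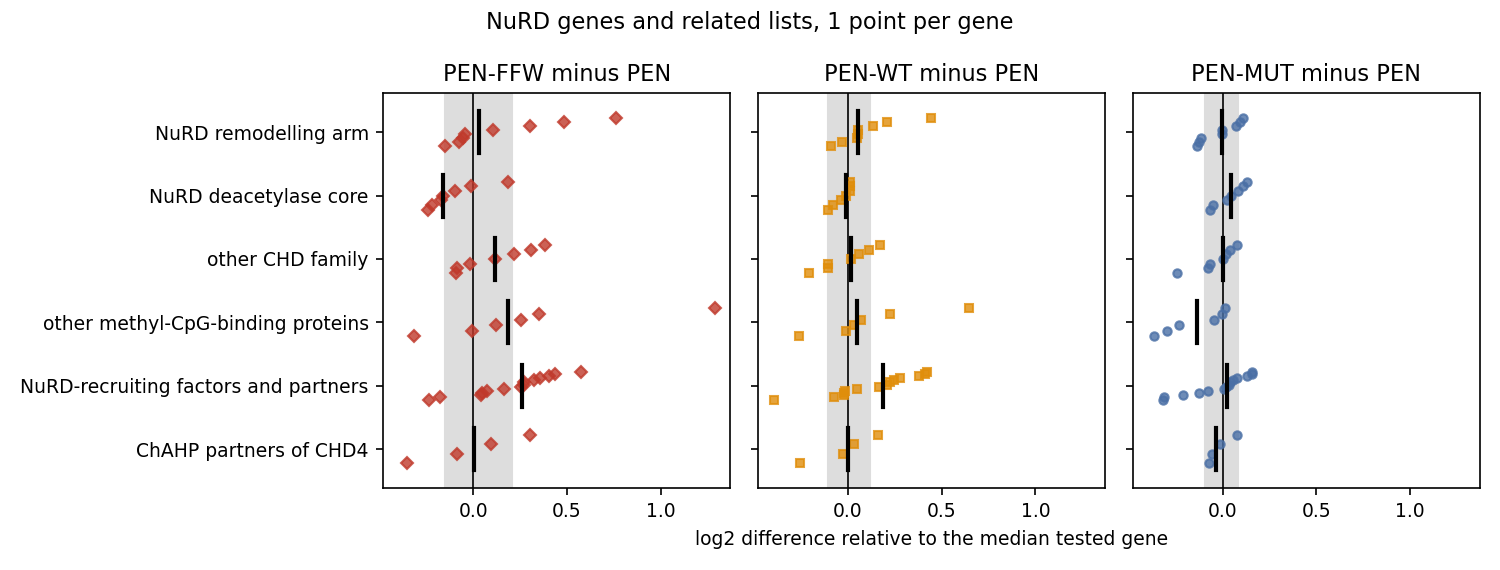
Centred log2 difference from PEN of each tested gene (1 point per gene) in the remodelling arm and 5 related lists, for PEN-FFW, PEN-WT and PEN-MUT, with each list's median as a black bar and the middle 50% of all tested genes shaded. The point at 1.29 under PEN-FFW is MBD6, and the deacetylase core has its median at -0.16 there.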

How the data were processed

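RNA of SNU398 cells was sequenced in 4 libraries, 1 per peptide. The other 3 samples of the series are not analysed here. The submitters' processing notes name STAR 2.4.0i, featureCounts 1.5.0-p1 and the build hg19. For the annotation, the strand setting and the normalization, a method is not given in the sources used here. The authors deposited 1 table of log2 values with a column per library, and the samples' descriptions say which column is whose. No other column was present (0).

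Raised to the power of 2, the deposited log2 values above the lowest one (5 on the linear scale) were whole multiples of 1 step per library in 100% of genes, within 0.1 read. The steps were 0.923 for PEN-FFW, 0.776 for PEN-WT, 1 for PEN-MUT and 0.840 for PEN, and dividing by them gave reads. Differences were taken on log2(normalized count + 10), which understates the fold of low genes, over genes with a mean of at least 50, less the median of those genes. Counting errors follow the Poisson law, and reads are not independent molecules. The steps were tested on simulated data.

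Gene positions, lengths and GC content came from GENCODE 44 lifted to GRCh37 (20574 genes found under their current symbol, 1572 under a former one and 1564 under none), which may not be the authors' annotation. Lists and members were chosen with earlier results of these data known. The 8 members, SALL4 and RBBP4 are always named, with the 2 genes of each other list farthest from PEN in PEN-FFW. An item that this rule would name is not reported here. MALAT1, NEAT1, KCNQ1OT1, CBX1, CBX5 and IKZF1 were named after their values were seen. Python 3.11.15, numpy 2.4.6 and pandas 2.3.3 were used. Alternatives were another pseudocount (1 or 50), another minimum (none or 200), other centring or scaling, and other transcript lengths.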

Additional observations from a re-analysis of the deposited data

How the results depend on the processing

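No replicate could be left out, and no paired analysis was possible because each peptide has 1 library. Of 480 values of member differences under 10 alternatives, 384 moved by less than the counting interval, 96 moved by more and 0 of those past 1.2-fold changed sign. The count of members past 1.2-fold was 5 in place of 3 for PEN-FFW against PEN (1 higher and 4 lower), and 5 in place of 3 for PEN-FFW against PEN-MUT (2 higher and 3 lower), both without centring and with no filter on low values. For both of these pairs the values with no filter equalled those without centring, so that setting removes the centring. For PEN-FFW against PEN-WT it removed most of it: CHD3 stood at -0.16 with no filter and at -0.21 without centring. For PEN-WT against PEN-MUT the count was 2 in place of 1 when centred on genes of the same mean expression and with a minimum of 200. CHD5, at 0.26 in the reported setting, came to 0.27 in both. For PEN-FFW against PEN-WT it was 3 in place of 2 without centring and with no filter, and these were 0 higher and 3 lower in place of 2 higher and 0 lower. For PEN-FFW against PEN-MUT it was 4 in place of 3 with a pseudocount of 50 and with libraries scaled by median ratios. These were 3 higher and 1 lower, the lower gene being CDK2AP1. The other counts were within 1.5 times of those reported.

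Ratios of paralogues per kilobase of transcript are shifted by the same amount in every library. In PEN-FFW, PEN-WT, PEN-MUT and PEN the log2 ratio of CHD3 to CHD4 was -1.57, -1.62, -1.92 and -1.92 in reads, -1.76, -1.81, -2.10 and -2.11 per kilobase of the canonical transcript, and -1.37, -1.41, -1.71 and -1.71 per kilobase of merged exons. For MBD3 to MBD2 it was 2.28, 2.13, 2.10 and 2.12 in reads, 2.12, 1.96, 1.94 and 1.96 by transcript, and 1.81, 1.65, 1.63 and 1.65 by merged exons. For GATAD2A to GATAD2B it was 4.06, 4.43, 4.90 and 4.91 in reads, 4.45, 4.82, 5.29 and 5.30 by transcript, and 4.38, 4.75, 5.22 and 5.23 by merged exons. In the order of levels with merged exons GATAD2A took place 1 in PEN-FFW, PEN-WT and PEN and 2 in PEN-MUT, where CHD4 took place 1, and CDK2AP1 took place 3 in every library.

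GATAD2B rests on 349 to 678 reads a library, the fewest of the arm, so its counting error of a difference is about 0.09, against 0.02 or less for CHD4.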

Other observations

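By annotation, LSMD1 (now NAA38) overlaps CHD3 by 443 bases on the other strand and stood at 0.01, 0.03 and 0.23 from PEN under PEN-FFW, PEN-WT and PEN-MUT. SCARNA21, a guide RNA of Cajal bodies, lies within CHD3 on the same strand and differed from PEN by 0.07 under PEN-FFW and -0.01 under PEN-WT, where CHD3 stood at 0.30 and 0.21. C12orf65, a mitochondrial translation release factor gene now named MTRFR, overlaps CDK2AP1 by 7968 bases on the other strand and stood at 0.10 under PEN-FFW, 0.23 under PEN-WT and 0.17 under PEN-MUT, against -0.15, 0.05 and 0.11 for CDK2AP1. SCARNA11, within CHD4, was at the lowest listed value in all 4 libraries, and SNORA37, within MBD2, had 12.0, 6.99, 5 and 7.56 normalized counts under PEN-FFW, PEN-WT, PEN-MUT and PEN. Annotated genes that the expression table does not list also overlap members and have no values here. Among them, ENSG00000231827 (6919 bases shared) and ENSG00000291199 (2366 bases) overlap GATAD2B on the other strand. Protein-coding entries on the same strand overlap CHD4 by 37286 bases, CHD5 by 20892 and MBD3 by 14527. Since the strand setting is not given, reads of the shared bases cannot be told apart.

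With each library centred on its own median tested gene, the highest and lowest libraries differed by 0.86 for GATAD2B, past the 1.5-fold set for naming genes of like profile, and by 0.57 for CHD5, just inside it. Centred by pair, CHD5 under PEN-FFW stood 0.61 above PEN-MUT, which is past 1.5-fold. The tested gene with the profile nearest to GATAD2B over the 4 libraries was CRTC1, a coactivator of the transcription factor CREB, at a Euclidean distance of 0.05 on the log2 scale. It had 1257 normalized counts under PEN-FFW, 1239 under PEN-WT, 863 under PEN-MUT and 904 under PEN. LOC729444 followed at 0.07, with 115 under PEN-FFW, 108 under PEN-WT, 72.0 under PEN-MUT and 80.6 under PEN. In all, 97 tested genes lay within 0.2 of GATAD2B.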
